A study of Arabidopsis thaliana with 12 samples.

Results

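The loci described here are 57 named Arabidopsis thaliana genes whose array signal was lower after proline in every computable pair of replicate samples. Values of 0 were left out of the comparison. The loci were picked from these same values, so their lower signal is a description and carries no test. Of the 3439 probes of the array, 692 had a single gene and stood for 691 loci, and 608 of these loci had a value above 0 in at least 4 samples of each group. The other 83 loci had too few values and were not considered. For each of the 608, the log2 value minus the array median was averaged within each group over samples 1 and 2, samples 3 and 4, and samples 5 and 6, which are called pairs 1, 2 and 3. A locus met the rule when proline minus water was -0.5 or less in each pair with values in both groups. The rule was met by 70 loci, or 11.5% of the 608, and 13 of them were set aside because they were named beforehand for other gene groups or were among the 60 loci of highest rank in water. All values below are the deposited intensity divided by the median of its array, over values above 0, and are called times the array median.

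The samples were total RNA of wild-type plants, ecotype Wassilevskija: 6 samples from plants treated with 100 mM proline for 48 h, and 6 samples labelled as water, for which the labels also speak of no treatment. No transgene or mutation is named for either group. Tissue and age are not stated in the labels, and none of the 9 leaf, root and seed marker genes looked up had a single-gene probe, so the tissue could not be checked. The labels do not say whether the samples of a group are separate plants, so the spread between them may be technical. The standard errors (SE) given below treat these samples as independent and may be too small.

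Proline is an amino acid that plant cells pile up under drought and salt, where it acts as a compatible solute. It is made from glutamate in the cytosol and the chloroplast, and is oxidised back to glutamate in the mitochondrion, where the electrons enter the respiratory chain. Proline supplied from outside in excess is known to be toxic to Arabidopsis. The 57 loci were chosen by their values and not by pathway. The array annotation and the gene table give locus names with few functions, so the roles given here are background knowledge, with 33 loci placed by role and 24 left without one. Probe sequences were not used here, and whether a probe also reads related gene copies is not known.

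Across the 57 loci the median log2 difference between proline and water was -1.28, a 2.43-fold lower signal, with single loci between -3.63 and -0.73. Over all 608 loci the median was -0.18, and over all 3045 tested features -0.16. Of the 57 loci, 43 were at least 2-fold lower and 11 at least 4-fold lower on the mean of the values above 0. In pair 1 the median over the loci was -1.12 (n = 56), in pair 2 -1.29 (n = 53) and in pair 3 -1.08 (n = 56), against -0.03, -0.15 and -0.26 for all 608 loci in the same order.

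**Figure D1:**
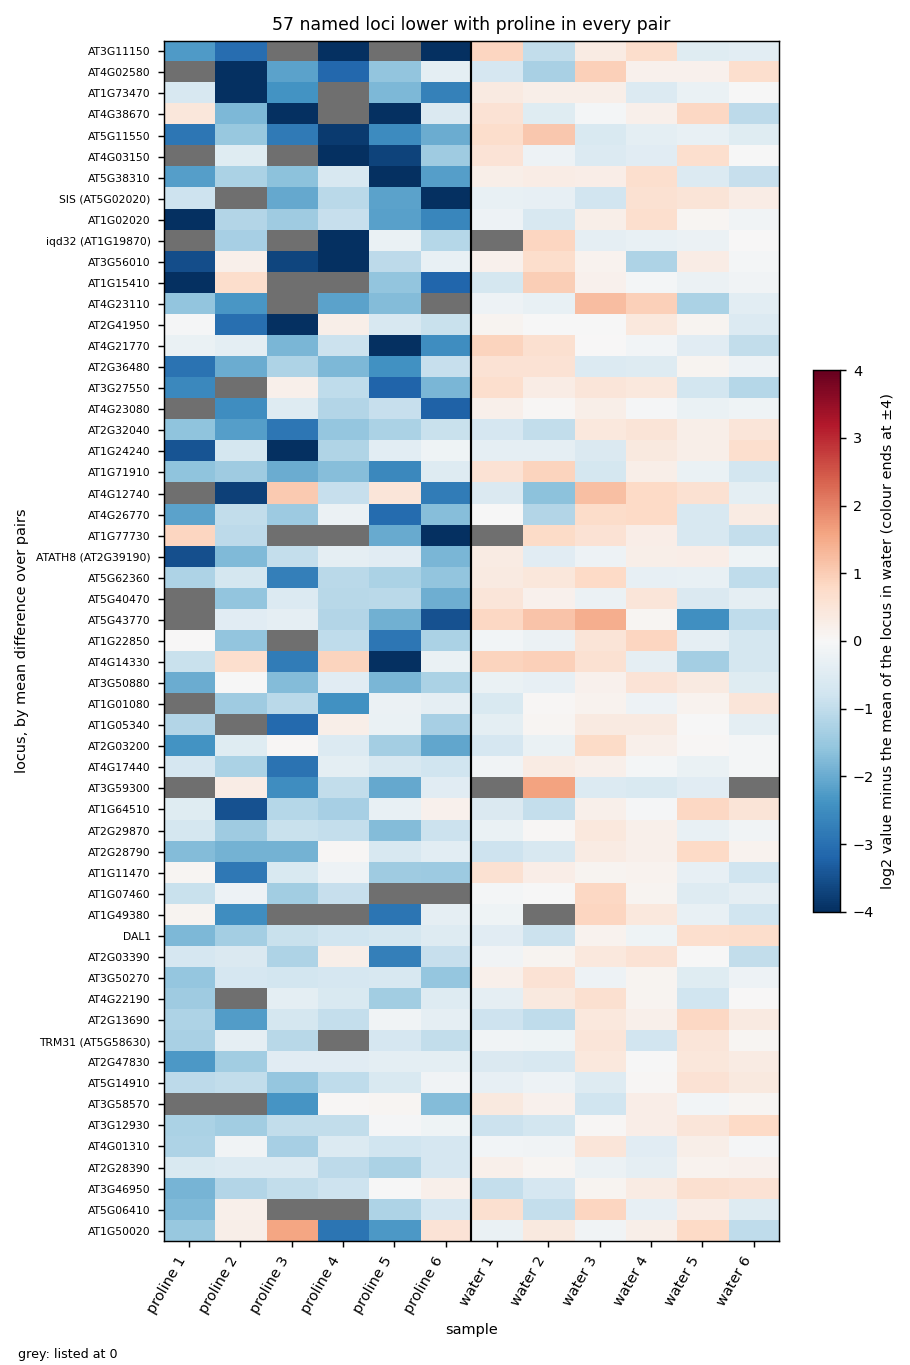
Log2 value of each of the 57 loci (rows, ordered by the mean difference over pairs) in each sample (columns, 6 proline samples left and 6 water samples right), minus the mean of that locus in water; grey cells are listed at 0. The proline side is mostly blue and holds most of the grey cells, and 25 loci have at least 1 grey proline cell against 4 with at least 1 grey water cell.

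The loci tied to the mitochondrion were AT4G02580 and AT5G06410. AT4G02580, a subunit of respiratory complex I, which passes electrons from NADH into the chain, had 0, 0.0055, 0.262, 0.131, 0.386 and 0.882 times the array median in proline samples 1 to 6, against 0.727, 0.47, 2.23, 1.31, 1.31 and 1.84 in water samples 1 to 6. All proline values except that of sample 6 lay below every water value. Sample 1 was listed at 0 and sample 2 lay close to it. Its log2 difference was -3.00 ± 1.05 (SE, n = 5 and 6), with -6.73, -3.20 and -1.41 in pairs 1, 2 and 3, and -1.81 without proline sample 2. AT5G06410, a J-domain cochaperone that helps to build iron-sulfur clusters, ranged over 0 to 0.463 (median 0.144) in proline, against 0.206 to 0.726 (median 0.407) in water, and its proline samples 3 and 4 were listed at 0. Its log2 difference of -0.87 ± 0.46 (SE, n = 4 and 6) could be computed in pairs 1 and 3 only, and the groups overlapped.

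Proteins of plastid gene expression and plastid assembly formed a group of 6 loci, with log2 differences between -1.41 and -0.79 (median -1.04). The plastid keeps its own ribosomes, of bacterial type, whose proteins are mostly encoded in the nucleus. AT4G01310, ribosomal protein L5 of the plastid, had a range of 0.649 to 1.45 (median 0.972) in proline, against 1.19 to 2.28 (median 1.53) in water, a log2 difference of -0.79 ± 0.26 (SE, n = 6 and 6). AT1G64510, ribosomal protein S6 of the plastid, ranged over 0.098 to 1.23 (median 0.641) in proline, against 0.568 to 1.94 (median 1.16) in water, with -1.09 ± 0.54 (SE, n = 6 and 6). Proline samples 1, 5 and 6 of AT1G64510 lay within the water range, and proline sample 2 was the lowest of all 12, without which the difference was -0.61. AT3G12930, of the Iojap family, whose bacterial relative silences ribosomes, ranged over 1.24 to 3.16 (median 1.66) in proline, against 1.8 to 5.69 (median 3.65) in water, with a log2 difference of -0.81 ± 0.35 (SE, n = 6 and 6). AT1G01080, an RNA-binding protein with RNA recognition motifs, ranged over 0 to 0.615 (median 0.309) in proline, against 0.475 to 1.02 (median 0.781) in water, with -1.10 ± 0.39 (SE, n = 5 and 6), and was listed at 0 in proline sample 1. In each of these 4 loci the groups overlapped.

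The other 2 plastid loci act in protein turnover and in cytochrome assembly. AT2G03390, an adaptor of the chloroplast Clp protease, ranged over 0.155 to 1.22 (median 0.602) in proline, against 0.529 to 1.56 (median 1.08) in water. Its log2 difference was -0.99 ± 0.44 (SE, n = 6 and 6), with -0.61, -1.003 and -1.34 in pairs 1, 2 and 3, and proline samples 1, 2, 4 and 6 lay within the water range. Without proline sample 5 the difference of AT2G03390 was -0.63. AT1G49380, which helps to attach heme to c-type cytochromes in the chloroplast, ranged over 0 to 0.387 (median 0.0556) in proline, against 0 to 0.649 (median 0.302) in water. Its log2 difference was -1.41 ± 0.65 (SE, n = 4 and 5), and -0.63 with the replicate number as a block. AT1G49380 was listed at 0 in proline samples 3 and 4 and in water sample 2, so pair 2 gave no value. Where a sample of each group with the same number had a value, AT1G49380 was lower in 1 of 3 comparisons, the poorest record of the 57 loci.

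RNA-binding, ribosomal and RNA-modifying proteins gave 5 further loci. AT4G21770, of the pseudouridine synthase family that modifies uridines in RNA, had 0.808, 0.742, 0.276, 0.539, 0.0202 and 0.173 times the array median in proline samples 1 to 6, against 1.81, 1.52, 0.976, 0.904, 0.715 and 0.492 in water samples 1 to 6. The groups overlapped because water samples 5 and 6 were low, yet within each pair both proline samples lay below both water samples. The log2 difference was -1.90 ± 0.77 (SE, n = 6 and 6), with -1.10, -1.29 and -3.33 in pairs 1, 2 and 3, and -1.17 without proline sample 5. AT3G27550, with an RNA-binding domain of the CRM type that serves intron splicing in organelles, had 0.0591, 0, 0.401, 0.174, 0.0379 and 0.0987 times the array median in proline samples 1 to 6, against 0.554, 0.433, 0.486, 0.472, 0.209 and 0.159 in water samples 1 to 6. Proline samples 3 and 4 of AT3G27550 lay above water sample 6, the lowest of its group. Its log2 difference was -1.68 ± 0.58 (SE, n = 5 and 6), and proline sample 2, listed at 0, is left out of it.

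AT1G24240, of the L19 family of ribosomal proteins, ranged over 0.0629 to 0.966 (median 0.572) in proline, against 0.736 to 1.76 (median 1.07) in water, and its log2 difference was -1.68 ± 0.64 (SE, n = 6 and 6). AT3G58570, a DEAD-box RNA helicase, ranged over 0 to 0.605 (median 0.142) in proline, against 0.335 to 0.761 (median 0.631) in water, with -1.0001 ± 0.50 (SE, n = 4 and 6). Both proline samples of pair 1 were listed at 0 for AT3G58570, so its difference rests on pairs 2 and 3. AT3G46950, of the mTERF family that acts on organelle transcripts, ranged over 0.807 to 3.4 (median 1.57) in proline, against 1.53 to 4.55 (median 3.41) in water, with -0.78 ± 0.40 (SE, n = 6 and 6). The values of AT3G46950 followed the pairs in both groups, lowest in pair 1 and highest in pair 3, and in each pair both proline samples lay below both water samples. AT3G46950 was also the locus nearest to the threshold of the rule, at -0.502 in pair 3.

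DNA glycosylases, which cut damaged bases out of DNA, were represented by AT4G12740, of the type that removes adenine mispaired with oxidised guanine, and AT3G50880. AT3G50880 ranged over 0.173 to 0.679 (median 0.244) in proline, against 0.489 to 0.995 (median 0.673) in water, with a log2 difference of -1.22 ± 0.36 (SE, n = 6 and 6). AT4G12740 ranged over 0 to 1.29 (median 0.209) in proline, against 0.198 to 1.41 (median 0.71) in water, with -1.18 ± 0.84 (SE, n = 5 and 6). In both loci the groups overlapped, and the proline values of AT4G12740 were scattered over most of the water range and below it. The difference of AT4G12740 was -0.54 without proline sample 2 and -0.78 without proline sample 6.

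**Figure D2:**
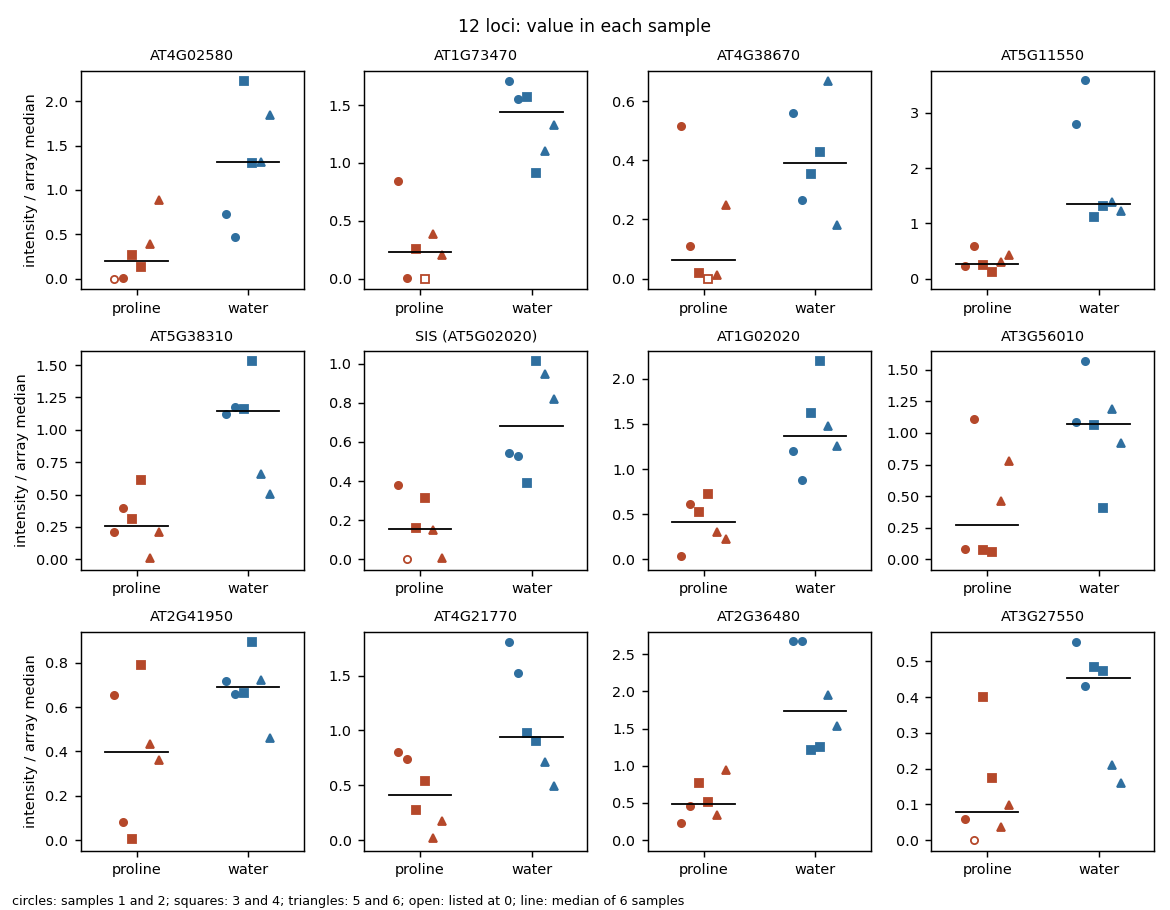
Intensity divided by the array median in each of the 6 proline and 6 water samples for the 12 loci with the lowest mean difference over pairs among those with at least 5 values in each group; the black line is the median of 6 samples and open symbols are listed at 0. AT5G11550, AT1G02020, AT2G36480, AT1G73470 and SIS show no overlap between the groups, while the other 7 do. Of all 608 loci, 19 (3.12%) show none, and the rule favours such loci.

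Membrane and transport proteins gave 6 loci, with log2 differences between -1.74 and -0.78 (median -1.22). In 2 of the 6 all proline samples lay below all water samples, against 19 of all 608 loci (3.12%), and the rule favours such loci. AT2G32040, of the folate and biopterin transporters, ranged over 0.303 to 1.2 (median 0.746) in proline, against 1.13 to 3.2 (median 2.81) in water. The groups of AT2G32040 met only through proline sample 6 and water sample 2, and its log2 difference was -1.74 ± 0.38 (SE, n = 6 and 6). AT2G29870, of the aquaporin family of water channels, ranged over 0.592 to 1.22 (median 1.05) in proline, against 1.59 to 2.65 (median 1.93) in water. Its groups were apart, its log2 difference was -1.09 ± 0.24 (SE, n = 6 and 6), and the pairs agreed closely at -0.95, -1.23 and -1.08. AT2G28390, a protein of vacuolar trafficking also known as MON1 and widely used as a reference gene in Arabidopsis PCR work, ranged over 0.577 to 0.958 (median 0.887) in proline, against 1.09 to 1.61 (median 1.49) in water. Its groups were apart too, with a log2 difference of -0.78 ± 0.22 (SE, n = 6 and 6) here and -0.79 to -0.52 over 5 other scalings of the arrays. AT2G28390 met the rule under only 2 of those 5 scalings. In pair 2 it lay just inside the threshold, at -0.505.

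AT4G26770, an enzyme that makes the activated lipid precursor CDP-diacylglycerol, ranged over 0.0499 to 0.356 (median 0.141) in proline, against 0.185 to 0.726 (median 0.469) in water, with a log2 difference of -1.60 ± 0.47 (SE, n = 6 and 6). AT1G22850, of a family of SNARE-associated Golgi proteins, ranged over 0 to 0.764 (median 0.288) in proline, against 0.47 to 1.39 (median 0.685) in water, with -1.34 ± 0.47 (SE, n = 5 and 6). AT2G47830, of the cation efflux family that moves metals out of the cytosol, ranged over 0.534 to 2.02 (median 1.92) in proline, against 1.69 to 3.59 (median 2.98) in water, with -0.90 ± 0.37 (SE, n = 6 and 6). The groups of these 3 loci overlapped. In AT2G47830 both proline samples of each pair lay below both water samples of that pair.

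Of the 3 cytoskeleton loci, none had groups that stood apart. AT4G14330, a kinesin of the phragmoplast, the structure that builds the new wall between daughter cells, ranged over 0.0111 to 0.831 (median 0.307) in proline, against 0.174 to 0.857 (median 0.511) in water. Its log2 difference was -1.28 ± 0.93 (SE, n = 6 and 6), and in each pair the proline partners differed from each other by more than that. Without proline sample 5 it was -0.47. TRM31 (AT5G58630), named for a motif that recruits the TON1 protein to microtubules, ranged over 0 to 0.372 (median 0.23) in proline, against 0.283 to 0.675 (median 0.469) in water, with -0.89 ± 0.29 (SE, n = 5 and 6). IQD32 (AT1G19870), of a family that binds calmodulin and associates with microtubules, ranged over 0 to 0.596 (median 0.164) in proline, against 0 to 1.31 (median 0.602) in water, with -1.71 ± 0.67 (SE, n = 4 and 5). For IQD32, proline samples 1 and 3 and water sample 1 were listed at 0.

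Wall proteins, defence-type proteins and enzymes made up 7 loci, with log2 differences between -2.26 and -0.97 (median -1.43). AT4G38670, of the thaumatin family of pathogenesis-related proteins, had 0.516, 0.108, 0.0184, 0, 0.0114 and 0.25 times the array median in proline samples 1 to 6, against 0.56, 0.265, 0.354, 0.427, 0.669 and 0.181 in water samples 1 to 6. Proline sample 1 lay in the upper part of the water range while samples 3 and 5 were close to 0, and the log2 difference was -2.26 ± 0.88 (SE, n = 5 and 6). AT2G28790, of the same family, ranged over 0.136 to 0.52 (median 0.236) in proline, against 0.28 to 0.877 (median 0.564) in water, with -1.08 ± 0.41 (SE, n = 6 and 6) and nearly equal differences of -1.08, -1.17 and -0.999 in the 3 pairs. AT5G62360, an inhibitor-type protein of the invertase and pectin methylesterase inhibitor family, ranged over 0.147 to 0.603 (median 0.412) in proline, against 0.482 to 1.72 (median 1.03) in water, with -1.43 ± 0.38 (SE, n = 6 and 6). The groups of AT5G62360 overlapped only because of water sample 6.

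AT3G50270, of the HXXXD acyltransferase family of secondary metabolism, was the 1 locus of this set whose groups did not overlap, against 19 of all 608 loci (3.12%). It ranged over 0.458 to 0.846 (median 0.814) in proline, against 0.944 to 1.98 (median 1.3) in water, with a log2 difference of -0.97 ± 0.27 (SE, n = 6 and 6). ATATH8 (AT2G39190), of the ABC1 family of kinase-like proteins, ranged over 0.0447 to 0.402 (median 0.21) in proline, against 0.379 to 0.646 (median 0.535) in water, with -1.48 ± 0.47 (SE, n = 6 and 6). AT2G03200, of the aspartyl proteases, ranged over 0.299 to 1.64 (median 0.853) in proline, against 0.979 to 2.68 (median 1.56) in water, with -1.13 ± 0.42 (SE, n = 6 and 6), and AT2G03200 was lower in proline in every same-numbered comparison although the groups overlapped. AT1G15410, of the aspartate and glutamate racemase family, ranged over 0 to 0.723 (median 0.0383) in proline, against 0.273 to 0.894 (median 0.415) in water, with -2.03 ± 0.76 (SE, n = 4 and 6). Both proline samples of pair 2 were listed at 0 for AT1G15410, so pair 2 gave no difference.

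AT5G11550, an armadillo-repeat protein, and SIS (AT5G02020), named for salt-induced expression and its serine-rich sequence, were the remaining loci with a role. AT5G11550 had 0.233, 0.598, 0.238, 0.12, 0.296 and 0.429 times the array median in proline samples 1 to 6, against 2.79, 3.59, 1.12, 1.31, 1.38 and 1.23 in water samples 1 to 6. Every proline value was below every water value. Its log2 difference was -2.60 ± 0.42 (SE, n = 6 and 6), with -3.09, -2.84 and -1.87 in the 3 pairs. SIS had 0.377, 0, 0.162, 0.314, 0.151 and 0.00633 times the array median in proline samples 1 to 6, against 0.542, 0.53, 0.388, 1.01, 0.945 and 0.818 in water samples 1 to 6. All proline values of SIS lay below all water values, although proline sample 1 and water sample 3 were close. Its log2 difference of -2.56 ± 0.88 (SE, n = 5 and 6) leans on proline sample 6, without which it was -1.52, and the pair values were -0.51, -1.48 and -4.83.

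Among the 24 loci for which no role is given, the log2 differences lay between -3.63 and -0.73 (median -1.51). The groups did not overlap in 7, against 19 of all 608 loci (3.12%), and the rule favours such loci. The lowest mean of all was that of AT3G11150, which ranged over 0 to 0.275 (median 0.0551) in proline, against 0.667 to 2.42 (median 1.33) in water. Proline samples 3 and 5 of AT3G11150 were listed at 0, and its log2 difference over the remaining samples was -3.63 ± 0.54 (SE, n = 4 and 6). AT1G73470 had 0.847, 0.00353, 0.252, 0, 0.383 and 0.203 times the array median in proline samples 1 to 6, against 1.71, 1.55, 1.57, 0.909, 1.1 and 1.32 in water samples 1 to 6. Its groups did not overlap, but proline sample 2 lay far below the rest, and the log2 difference was -3.22 ± 1.09 (SE, n = 5 and 6), or -1.89 without that sample. AT1G02020 had 0.0348, 0.617, 0.52, 0.722, 0.308 and 0.226 times the array median in proline samples 1 to 6, against 1.2, 0.878, 1.62, 2.2, 1.47 and 1.26 in water samples 1 to 6. These groups were also apart, with proline sample 1 the lowest and a log2 difference of -2.26 ± 0.62 (SE, n = 6 and 6).

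AT2G36480 had 0.232, 0.455, 0.766, 0.515, 0.336 and 0.942 times the array median in proline samples 1 to 6, against 2.67, 2.67, 1.22, 1.25, 1.95 and 1.54 in water samples 1 to 6. No proline value reached the lowest water value, the log2 difference was -1.88 ± 0.36 (SE, n = 6 and 6), and the 3 pairs gave -3.04, -0.97 and -1.62. AT5G38310 had 0.208, 0.4, 0.309, 0.613, 0.0134 and 0.209 times the array median in proline samples 1 to 6, against 1.12, 1.17, 1.16, 1.53, 0.655 and 0.506 in water samples 1 to 6. Proline sample 4 of AT5G38310 lay above water sample 6 and sample 5 was close to 0, and the log2 difference was -2.35 ± 0.75 (SE, n = 6 and 6). AT3G56010 had 0.0831, 1.11, 0.0761, 0.0573, 0.464 and 0.779 times the array median in proline samples 1 to 6, against 1.09, 1.57, 1.06, 0.407, 1.19 and 0.92 in water samples 1 to 6. Proline samples 1, 3 and 4 stood low and samples 2, 5 and 6 lay within the water range, giving -2.07 ± 0.73 (SE, n = 6 and 6). AT2G41950 had 0.653, 0.084, 0.00461, 0.79, 0.433 and 0.363 times the array median in proline samples 1 to 6, against 0.719, 0.661, 0.665, 0.893, 0.72 and 0.46 in water samples 1 to 6. Proline samples 2 and 3 of AT2G41950 were far below water and the others near or within its range, and its log2 difference was -1.92 ± 1.02 (SE, n = 6 and 6). Without proline sample 3 it was -0.87, and AT2G41950 met the rule under 1 of 5 other scalings of the arrays.

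AT4G23110 ranged over 0 to 0.22 (median 0.142) in proline, against 0.275 to 1.56 (median 0.56) in water, and AT4G23080 over 0 to 0.439 (median 0.197) in proline, against 0.528 to 0.744 (median 0.628) in water. Neither locus showed overlap between the groups, with log2 differences of -1.94 ± 0.47 (SE, n = 4 and 6) and -1.66 ± 0.44 (SE, n = 5 and 6) in that order. They lie on chromosome 4 with 2 protein-coding genes between them, and were the only 2 of the 57 loci within 10 genes of each other. All 608 loci hold 147 such pairs. Pair counts grow faster than the number of loci, so these counts cannot be compared directly and nothing is read from them. AT4G17440 was the remaining locus of this kind without overlap, at 0.119 to 0.718 (median 0.563) in proline, against 0.781 to 1.17 (median 0.884) in water, with -1.12 ± 0.39 (SE, n = 6 and 6). AT4G03150 ranged over 0 to 0.731 (median 0.0685) in proline, against 0.708 to 1.64 (median 0.963) in water, with proline samples 1 and 3 listed at 0 and a log2 difference of -2.44 ± 0.66 (SE, n = 4 and 6). AT1G71910 ranged over 0.166 to 0.695 (median 0.317) in proline, against 0.598 to 1.83 (median 0.999) in water, with -1.64 ± 0.38 (SE, n = 6 and 6), and in AT1G71910 the overlap came from proline sample 6 alone.

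The other loci without a role had smaller differences or more scatter. The log2 difference was -1.55 ± 0.83 for AT1G77730, -1.47 ± 0.75 for AT5G43770, -1.26 ± 0.32 for AT5G40470 and -1.14 ± 0.66 for AT3G59300. It was -1.13 ± 0.50 for AT1G05340, -1.08 ± 0.45 for AT1G11470, -1.01 ± 0.33 for DAL1 and -0.94 ± 0.41 for AT2G13690. It was -0.89 ± 0.28 for AT5G14910, -0.87 ± 0.32 for AT4G22190, -0.85 ± 0.33 for AT1G07460 and -0.73 ± 0.69 for AT1G50020 (SE over the samples with a value). All 12 of these loci had overlapping groups. The numbers of proline and water values were 4 and 5 for AT1G77730, 5 and 4 for AT3G59300 and 4 and 6 for AT1G07460. They were 5 and 6 for AT5G43770, AT5G40470, AT1G05340 and AT4G22190, and 6 and 6 for the others. Both proline samples were listed at 0 in pair 2 for AT1G77730 and in pair 3 for AT1G07460, so those pairs gave no difference. DAL1 is the array's name for an identifier that was not found in the gene table. AT1G50020 had nearly equal pair differences of -0.70, -0.71 and -0.78, yet within 2 of the 6 same-numbered comparisons its proline value was the higher one, so equal pair means hid wide scatter between partners. The difference of AT1G50020 was -1.19, -0.29 and -0.41 without proline sample 3, 4 or 5. Without 1 proline sample it was -0.64 for AT1G05340 (sample 3) and -0.97 for AT5G43770 (sample 6).

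**Figure D3:**
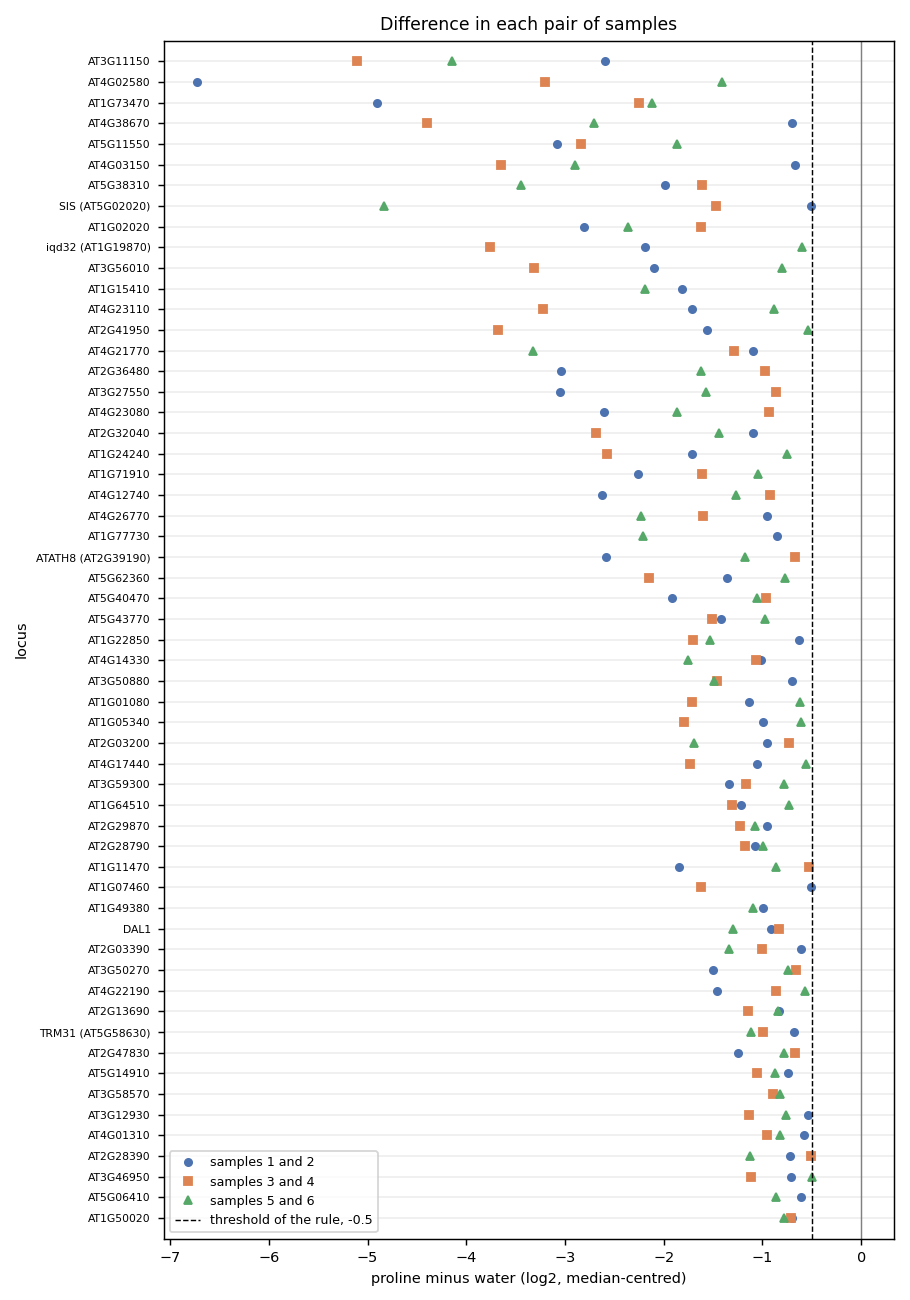
Proline minus water on the log2 scale for each of the 57 loci (rows), with 1 symbol for each pair of samples; the dashed line is the threshold of the rule at -0.5. Every symbol lies at or left of the line because the rule requires it, and the spread between the 3 symbols is widest at the top.

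The 3 pairs did not give equal differences. Among the 51 loci with all 3 pairs, the difference was deepest in pair 2 for 23 loci, in pair 1 for 16 and in pair 3 for 12. The gap between a locus's deepest and shallowest pair had a median of 1.18 on the log2 scale and ran from 0.08 to 5.32, and the same median over all loci with 3 pairs was 1.31. The gap was under 0.5 in 8 of the 51 loci and over 2 in 13. In 11 of the 57 loci each computable pair was at -1 or less. Just outside the threshold lay AT5G23540, whose largest pair difference was -0.495, and AT4G39570, at -0.489 in pair 1 with -3.39 and -4.47 in pairs 2 and 3.

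Same-numbered samples were set against each other as a finer view of the rule. Of 304 such differences that could be computed in the 57 loci, 288 were below 0, and 44 loci were below 0 in every one. In 16 loci each was at -0.5 or less. These were AT3G11150, AT4G02580, AT1G73470, AT5G11550, AT5G38310, SIS, AT1G02020, AT4G21770, AT2G36480, AT4G23080, AT2G32040, AT1G77730, ATATH8, AT5G62360, AT4G22190 and AT5G14910. AT1G77730 had only 3 computable comparisons. Its water sample 1 was listed at 0, so proline sample 1 was not compared. That proline value, 0.51 times the array median, lay above the highest water value, 0.478. Comparisons 3 and 4 were missing because those proline samples were listed at 0. These counts follow in part from the rule, which uses the same values.

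All 6 proline values, with samples listed at 0 counted as 0, lay below all 6 water values in 12 of the 57 loci (21.1%), against 19 of all 608 loci (3.12%), and the rule favours such loci. Limma, fitted to all 3045 features, passed 342 of them at an adjusted p under 0.05, or 11.2%, of which 128 were lower with proline. Of the 608 named loci 24 were lower calls (3.95%), and 16 of these were among the 57. Because same-numbered samples deviated together, the fit was repeated with the number as a block, which passed 236 lower features. They held 42 of the 608 loci (6.91%) and 25 of the 57. With partners of a pair treated as correlated within their group, 17 lower features passed. They held 3 of the 608 loci (0.493%), of which 2 were among the 57, AT3G11150 and AT5G11550. The 16 loci became 9, 8, 10 and 10 without water sample 1, 3, 4 or 6. In the same order, 108, 68, 77 and 90 of all features were lower calls. The 342 features became 210 without water sample 3 and 224 without water sample 4. Nothing is read from these counts, since the rule and the fit use the same contrast. The share of lower calls depended on the scaling. It was 37.4% of all calls with arrays centred on the median, 15% without any normalization between arrays (3 of 20), 29.2% when zeros were kept (132 of 452), 45.9% with cyclic loess (190 of 414) and 58.1% with quantile normalization (233 of 401). With the block, 50% of the calls were lower.

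The scatter between the 2 partners of a pair is not independent of the rule, since 1 very low proline partner can carry a pair mean past the threshold. It is given as a description. In proline the median absolute log2 difference between partners was 0.97 over the 57 loci, against 0.37 over the other 551 loci. In water it was 0.33 over the 57 loci and 0.31 over the others. How much of the wider scatter in proline comes from this choice of loci was not tested. Of the 57 loci, 25 had values in all 12 samples and lay outside the dimmest 25% of features, and for these the medians were 0.59 in proline and 0.28 in water. For the 35 loci that were 0.5 or more higher in every pair (5.76% of 608), the medians were 0.20 in proline and 0.27 in water. Both sets were chosen from the same values.

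**Figure D4:**
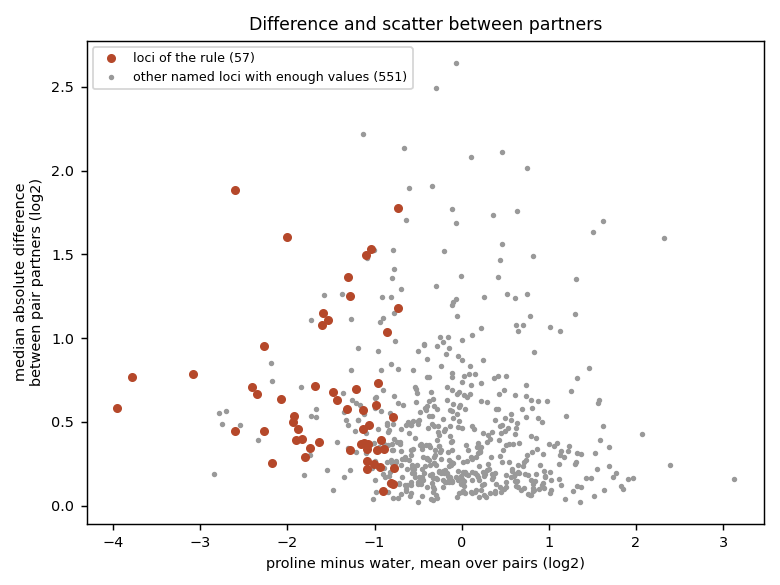
Proline minus water averaged over pairs (x axis, log2) against the median absolute difference between the partners of a pair (y axis, log2) for the 57 loci and for the other 551 loci with enough values. The 57 loci lie to the left, between 0.09 and 1.88 on the y axis, and other loci at the same x position include the 13 set aside and loci whose pairs did not all pass the threshold.

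In the dimmest 25% of all features, by the mean over both groups, were 23 of the 57 loci (40.4%), against 169 of the 608 loci (27.8%), and a lower signal in proline itself lowers that mean. A value of 0 in at least 1 proline sample was found in 25 of the 57 loci (43.9%), against 24% of the 608, and in at least 1 water sample in 4 (7.02%), against 9.38%. By sample, 10, 5, 9, 7, 2 and 2 of the 57 loci were listed at 0 in proline samples 1 to 6, and 3, 1, 0, 0, 0 and 1 in water samples 1 to 6. The rule and the fold changes leave these zeros out, and the part of dim signal in the differences was not tested. With zeros counted as 0, some pairs with a water zero had the higher mean in proline. Pair 1 of AT1G77730 had 0.51 and 0.137 in proline, against 0 and 0.478 in water. Pair 3 of AT3G59300 had 0.11 and 0.334, against 0.329 and 0. Pair 1 of AT1G49380 had 0.387 and 0.0641, against 0.314 and 0. Pair 1 of IQD32, the remaining locus with a water zero, stayed lower in proline.

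Chromosomes 1 to 5 held 15, 11, 9, 12 and 9 of the 57 loci, or 26.3%, 19.3%, 15.8%, 21.1% and 15.8%, against 23.7%, 18.9%, 19.1%, 18.8% and 19.4% of the 608 loci. DAL1 has no chromosome here.

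Of the 57 loci, 20 met the rule under all 5 other scalings: quantile normalization, cyclic loess, no normalization, a median over single-gene probes, and zeros kept with an offset of 0.01. They were AT1G02020, AT1G15410, AT1G24240, AT1G64510, AT1G73470, AT2G13690, AT2G28790, AT2G29870, AT2G32040, AT2G36480, AT3G11150, AT4G02580, AT4G21770, AT4G23080, AT4G23110, AT4G26770, AT5G11550, AT5G38310, AT5G40470 and DAL1. Of the others, 14 met it under 4 of the 5 scalings, 7 under 3, 12 under 2 and 4 under 1. Those 4 were AT2G41950, AT1G07460, AT3G46950 and AT1G50020. The mean difference of the 57 loci stayed below 0 in each of these scalings, which follows in part from the rule. The median over all features was -0.16 with arrays centred on the median and after quantile normalization, -0.13 with the single-gene median, -0.10 with no normalization, -0.09 after cyclic loess and -0.04 with zeros kept. With zeros kept the median of the 57 loci was -0.87. The offset of that setting was added to every deposited value, where array medians were 0.0325 to 0.0963, so it also changed loci without zeros.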

How the data were processed

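The authors deposited 1 table of processed values, 1 column per sample. Its unit was read from the values, as relative intensity on a linear scale that is never negative. Scanner, dyes, background correction and normalization are not stated in the labels or the file. Of the deposited intensity values, 8.43% were 0. Array medians of the values above 0 were 0.0335 to 0.0963 in proline and 0.0325 to 0.0812 in water, and 352 to 424 probes were at 0 in proline against 153 to 235 in water. The number of arrays limits the precision.

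Zeros were treated as missing, and the other values were log2-transformed and centred on the median of their array. Gene names come from the platform annotation, which can be old. They were updated through gene identifiers to a TAIR10.1 gene table, where 690 of 692 were found, and 56 of the 57 loci. No coordinates are given because the build is not named. All features with at least 4 values per group were fitted with limma 3.58.1 (lmFit, eBayes, Benjamini-Hochberg) in R 4.3.3 with statmod 1.5.0. This fit, with no block, gave the background and the standard errors. The standard errors borrow variance across features and treat the samples of a group as independent. The fit was tested on simulated data with independent samples, no missing values and equal spread in both groups. These data differ on those points, so that test does not cover them. Figures used matplotlib 3.10.9 in Python 3.11.15.

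The members, lists and rules were chosen with earlier results of these data known. All 57 loci are named. Values in every sample are given for the 12 loci with the lowest mean difference over pairs among those with at least 5 values in each group, and other loci are given by range. Roles were assigned by hand after the values were seen. Promoter motifs, protein lengths and product descriptions were not used here.

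The replicate numbers come from the sample titles. Deviations from the group means, over 2337 features with all values, correlated between same-numbered proline and water samples at 0.14 to 0.27, and all 12 samples correlated best with their own number in the other group. The numbers were therefore taken as pairing the samples, with no block in the first fit and the block as an alternative. The correlation between partners of a pair within a group, estimated by duplicateCorrelation as a single value for both groups, was 0.62. The groups differed when the deviations of partners were correlated directly over the 2337 features. In pairs 1, 2 and 3 this gave -0.02, 0.07 and 0.33 in proline, and 0.54, 0.30 and 0.41 in water. Alternatives covered scaling, zeros, filters, thresholds, blocks and left-out samples.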

Additional observations from a re-analysis of the deposited data

Results flagged for a closer look

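In 5 of 114 groups of values, each a locus in proline or in water, 1 sample stood apart from the others by more than 95% of chance gaps would, and chance gives about 1 in 20. Values are log2 with the array median at 0. Proline sample 2 lay at -8.15 for AT1G73470 (nearest sample -2.30), proline sample 5 at -6.22 for AT5G38310 (-2.26), proline sample 6 at -7.30 for SIS (AT5G02020, -2.73) and proline sample 3 at -3.06 for AT4G17440 (-1.35). Water sample 2 lay at 0.48 for AT3G59300 (-1.60, 4 values). The mean differences of these 5 loci rest in part on that sample.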

How the results depend on the processing

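The mean difference of the 57 loci was below 0 in all 1219 values recomputed under 24 other settings (up to 57 loci each). This sign follows in part from the rule, which used the same values. Settings that only filter loci leave the difference of a kept locus unchanged. Of the 1219 values, 1217 moved by less than the spread between samples. The exceptions were AT3G11150, at -2.44 with zeros kept, and AT1G07460, at -0.37 with no normalization between arrays. That spread is wide. With zeros kept, 26 of the 57 loci came closer to 0 by over 1.5 times, such as AT1G50020 (-0.17), AT3G59300 (-0.24), AT4G14330 (-0.37) and AT1G77730 (-0.47). That setting also added 0.01 to every deposited value, where the array medians were 0.0325 to 0.0963. AT1G50020 and AT4G14330 had values above 0 in all 12 samples, so they held no zeros. The parts of the zeros and of the offset were not tested apart. Leaving out 1 proline sample moved 12 loci by over 1.5 times, and leaving out 1 water sample moved none. These refits still needed 4 values in each group. They covered 48 to 55 of the 57 loci without 1 proline sample, and 56 or 57 without 1 water sample. The 10 loci with only 4 proline values were not recomputed without any of those 4, so how far they would move is not known. The number of loci that met the rule was 25 with zeros kept, 32 with values required in all 12 samples, 34 without the dimmest 25%, 88 without samples 1 and 2 of both groups, 11 at a threshold of -1, 154 at a threshold of 0 and 16 with each number as its own pair. It was 53 after quantile normalization (47 shared with the 57), 44 after cyclic loess (40 shared) and 43 to 64 with single samples left out. The median difference of the 57 loci was -1.07 after cyclic loess, -0.87 with zeros kept and -1.42 to -1.19 with single samples left out.

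In limma, 342 features passed in all, and 20 with no normalization, 57 without samples 3 and 4 of both groups, 770 with the pair as a fixed block, 80 with it as a random block and 210 to 318 with single samples left out. With pair means as samples 0 passed in limma, and 461 had an unadjusted p under 0.05. Of the 57 loci, 10 passed after cyclic loess, 0 with no normalization, 10, 2 and 9 without samples 1 and 2, 3 and 4, or 5 and 6 of both groups, 38 with the fixed block, 2 with the random block, 0 with pair means and 8 to 15 with single samples left out. In the same order, the lower calls over all features were 190 and 3 of 3045, then 210 of 2545, 16 of 2534 and 92 of 2458. They were 409, 17 and 0 of 3045 for the blocks and pair means, and 68 to 129 with single samples left out. Only 43, 38 and 33 of the 57 loci were tested without samples 1 and 2, 3 and 4, or 5 and 6. With single samples left out, 48 to 57 were tested. Nothing is read from these counts. The paired fit, with the replicate number as a block, passed 472 features, 236 of them lower, and 25 of the 57 loci. Fewer samples also mean fewer values, and the cause of the other shifts was not tested. Signal over background could not be computed, so the limit that dim signal sets is not known.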
